A study of Mus musculus with 82 samples.

Results

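The genes described here are interferon-stimulated genes, taken as a list of 31 gene symbols. A gene was counted as measured where the array had a probe set annotated to that single symbol, which held for 29 of the 31, on 47 probe sets, among 18193 measured genes. Isg15 and Ifi44 had no such probe set, and no value is given for them. Affymetrix mouse arrays recorded RNA levels in embryonic fibroblasts (MEFs, 23 arrays) and in primary hepatocytes, the main cells of the liver, freed with collagenase (59 arrays). All cells carry the strain label C57BL/6 and were either control (WT) or AMPK alpha1-/- alpha2-/- (dKO), in which the genes of both catalytic AMPK subunits are deleted; AMPK, AMP-activated protein kinase, is the cell's sensor of low energy. Cells were exposed for 4 h to the vehicle DMSO, to 991, a direct small-molecule activator of AMPK, or to AICAR, a nucleoside that cells convert to an AMP mimic. The dose of 991 was 10 µM for MEFs and 3 µM for hepatocytes, and that of AICAR was 2 mM for MEFs and 300 µM for hepatocytes, whose medium contained dexamethasone in all 6 groups. The doses differ between cell types, so the responses of MEFs and hepatocytes are given side by side without a test. The MEF groups have 4 arrays each, or 3 for WT with 991, and these are technical replicates. The hepatocyte groups have 10 arrays each, or 9 for dKO with vehicle, from 2 biological replicates. Each replicate is taken here as a cell preparation shared by the treatments of a genotype. The sample titles number the replicates and do not state that sharing.

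Interferons are secreted in response to viral and bacterial nucleic acids and signal through cell-surface receptors and Janus kinases. Type I interferons activate a complex with STAT2 and IRF9 that binds the interferon-stimulated response element (ISRE), and many genes induced by interferon gamma carry a gamma-activated site (GAS). The induced genes block viral RNA and protein synthesis, sense viral RNA, restrain the pathway itself, and raise antigen presentation on MHC class I molecules. Fibroblasts and hepatocytes both carry these receptors, and some of the genes have a basal level without infection.

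Promoter sequences are shown for the genes on which the results below turn. They come from RefSeq (build GRCm38.p6) and run from 250 bases before to 50 bases after the annotated start. A window was found for 23 of the 29 measured genes, 27 windows in all because 4 genes have more than 1. The ISRE core was searched on both strands as GAAANNGAAA and the GAS core as TTCNNNGAA, which reads as its own reverse complement; the 2 motifs overlap in the Bst2 window. The ISRE core was present in 11 of the 27 windows (40.7%) and in 3.44% of all 32851 mouse windows. For the GAS core these shares were 8 of 27 (29.6%) and 8.3%. The array data do not measure binding, so a match is a description of the sequence. In the sequences that follow, written 5′ to 3′ on the gene's strand, capitals mark a match to either core. Ifit1 (chr19:34640639-34640938, plus strand) and Ifit3 (chr19:34583279-34583578, plus strand) each hold 2 ISRE cores, Stat2 (chr10:128270248-128270547, plus strand) and Rsad2 (chr12:26456403-26456702, minus strand) hold 1, and one window of Ifit2 (chr19:34550444-34550743, plus strand) holds a GAS core only.
Ifit1: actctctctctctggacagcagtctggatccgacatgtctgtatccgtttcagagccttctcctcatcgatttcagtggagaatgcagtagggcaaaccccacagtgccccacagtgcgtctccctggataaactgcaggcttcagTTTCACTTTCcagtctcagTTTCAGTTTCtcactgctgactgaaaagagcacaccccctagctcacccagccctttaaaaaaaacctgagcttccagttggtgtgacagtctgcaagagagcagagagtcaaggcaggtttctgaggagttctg
Ifit3: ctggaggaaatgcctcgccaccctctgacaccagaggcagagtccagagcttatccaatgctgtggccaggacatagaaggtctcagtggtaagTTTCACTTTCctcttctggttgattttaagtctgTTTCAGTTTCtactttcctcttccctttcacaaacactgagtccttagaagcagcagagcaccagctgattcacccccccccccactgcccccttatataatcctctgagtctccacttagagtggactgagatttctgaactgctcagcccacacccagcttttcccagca
Stat2: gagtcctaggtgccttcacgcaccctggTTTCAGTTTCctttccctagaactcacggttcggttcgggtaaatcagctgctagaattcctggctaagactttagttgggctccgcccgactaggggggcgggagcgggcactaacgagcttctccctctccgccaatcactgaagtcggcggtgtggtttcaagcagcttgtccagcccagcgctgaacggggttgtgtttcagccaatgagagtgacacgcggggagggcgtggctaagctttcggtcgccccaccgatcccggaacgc
Ifit2: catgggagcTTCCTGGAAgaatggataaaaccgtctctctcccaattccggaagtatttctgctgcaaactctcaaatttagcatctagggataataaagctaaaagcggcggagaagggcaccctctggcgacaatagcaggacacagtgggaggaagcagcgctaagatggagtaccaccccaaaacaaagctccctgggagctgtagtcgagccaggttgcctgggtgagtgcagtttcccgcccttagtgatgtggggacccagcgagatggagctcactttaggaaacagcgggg
Rsad2: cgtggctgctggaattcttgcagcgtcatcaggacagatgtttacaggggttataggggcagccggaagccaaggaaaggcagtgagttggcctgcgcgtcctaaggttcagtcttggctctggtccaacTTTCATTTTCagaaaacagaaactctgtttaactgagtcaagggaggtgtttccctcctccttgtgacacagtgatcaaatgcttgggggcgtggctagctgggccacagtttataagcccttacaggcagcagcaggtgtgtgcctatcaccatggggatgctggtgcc

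Psmb8 (chr17:34197945-34198244, plus strand) and Ifi202b (chr1:173982795-173983094, minus strand), which differed most between the MEF genotypes among the genes that were higher in dKO, each hold a GAS core and no ISRE core.
Psmb8: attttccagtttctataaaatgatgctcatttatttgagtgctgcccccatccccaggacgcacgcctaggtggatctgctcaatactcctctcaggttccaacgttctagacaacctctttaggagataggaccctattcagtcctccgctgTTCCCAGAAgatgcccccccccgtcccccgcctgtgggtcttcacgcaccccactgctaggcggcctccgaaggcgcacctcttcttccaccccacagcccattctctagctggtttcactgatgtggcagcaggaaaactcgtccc
Ifi202b: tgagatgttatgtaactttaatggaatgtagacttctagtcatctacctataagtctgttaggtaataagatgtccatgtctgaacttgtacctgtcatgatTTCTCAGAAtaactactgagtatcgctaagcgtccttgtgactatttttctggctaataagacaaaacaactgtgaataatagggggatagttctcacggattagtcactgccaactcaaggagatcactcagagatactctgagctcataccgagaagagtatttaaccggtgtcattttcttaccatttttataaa
The ISRE cores of Ifit1 begin 104 and 85 bases before the start and those of Ifit3 begin 156 and 122 bases before it. In Stat2 the ISRE core begins 222 bases before the start and in Rsad2 120 bases before it. The GAS core begins 97 bases before the start in Psmb8, 148 in Ifi202b and 241 in Ifit2. Neither core was found in the windows of Trim25, Oasl1, Oasl2, Irf7, Irf9, Psmb9 and Tap1. Psmb9 and Tap1 start close together on opposite strands of chromosome 17, and their windows overlap.

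On the log2 intensity scale the median of an array was 6.16 to 6.25 for MEFs and 5.88 to 6.08 for hepatocytes, and each array correlated with the rest of its group at 0.9979 or more in MEFs and 0.9973 or more in hepatocytes. Hepatocyte markers were bright in hepatocytes (Alb, albumin, 14.77 against 5.25 in MEFs) and the collagen gene Col1a1 was bright in MEFs (11.96 against 5.19). The hepatocyte samples also held macrophage markers, among them Cd68 at 10.58 and the Kupffer cell lectin Clec4f at 8.03. In bulk RNA such as this, fewer cells of a type and less RNA per cell cannot be told apart. Of the deleted genes, Prkaa1 differed between dKO and WT by −0.09 ± 0.10 (SE) and Prkaa2 by −0.32 ± 0.08 in MEFs (limma, adjusted p = 0.514 and 0.00116). In hepatocytes these differences were −1.11 ± 0.09 and −0.10 ± 0.08 (limma, adjusted p = 0.194 and 0.993). The sources used here do not give whether these probe sets lie in the deleted parts, so they do not check the labels.

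Tests were run with limma within each cell type, p-values were adjusted over all 18193 genes by the Benjamini-Hochberg method, and the word called stands for an adjusted p under 0.05. Differences are on the log2 scale with their SE. In MEFs the p-values measure only the spread between technical replicates, and genotype cannot be told apart from cell line. The labels give the strain as C57BL/6 and do not give the breeding history of the MEF lines, which bears on every difference between the MEF genotypes. In hepatocytes the 12 preparation means were compared, with 4 residual degrees of freedom.

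Some of the 29 genes stood at different levels in the 2 cell types, and others, such as Ifit1 with a mean of 7.03 in each, did not. Usp18, the protease that removes ISG15 from proteins and restrains interferon receptor signalling, had a mean over all arrays of 4.86 in MEFs, the 20.3 percentile of measured genes, and of 10.17 in hepatocytes, the 86.2 percentile. Rsad2, which encodes the antiviral enzyme viperin, had means of 6.13 and 10.15 (39.2 and 86.0 percentiles). Ifit2 had the opposite order, with 8.80 in MEFs and 6.26 in hepatocytes. Mx1, an antiviral GTPase, was dim in both, at 3.36 and 3.84 (5.01 and 7.99 percentiles), and B2m, the light chain of MHC class I, was bright in both, at 13.16 and 13.76. The sources used here do not state whether both cell types were normalized in 1 run, and these levels were not tested against each other.

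Of the comparisons made, dKO against WT MEFs with vehicle held the largest differences among the interferon-stimulated genes. Psmb8, Psmb9, Tap1 and B2m, which serve antigen presentation, the guanylate-binding proteins Gbp2 and Gbp3, and Parp9 and Parp14 were higher in dKO MEFs, and Trim25 and the Ifit genes were lower. In all, 13 of 29 genes were higher in dKO and 7 were lower, where 28% and 19.2% of all measured genes were called higher and lower. The median difference of the 29 genes was 0.15, and that of all genes was 0.00.

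The 4 measured genes of antigen processing and presentation were all higher in dKO MEFs. Psmb8, a catalytic subunit of the immunoproteasome, read 6.44, 6.24, 6.48 and 6.19 in the WT vehicle arrays and 9.79, 10.01, 10.00 and 9.94 in the dKO vehicle arrays. The groups lay far apart without overlap, a difference of 3.60 ± 0.07 or 12.1-fold (limma, adjusted p = 1.36e-28). A second, dim probe set of Psmb8 gave 0.44 ± 0.10, and the mean of both gave 2.02. Psmb9, the neighbouring immunoproteasome subunit, was higher by 1.79 ± 0.09 (adjusted p = 1.7e-17) and B2m by 0.59 ± 0.03 (adjusted p = 4.63e-19). Tap1, a subunit of the peptide transporter into the endoplasmic reticulum, was higher by 1.29 ± 0.09 on its brightest probe set, and its 3 other probe sets gave differences of 0.02, 0.17 and −0.06, none of them called, so that the mean of all 4 was 0.35.

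Gbp2, Gbp3, Ifi35 and Ifi202b were also higher in dKO MEFs, while the Mx GTPases Mx1 and Mx2 were not called. Ifi202b, a DNA-binding protein of the interferon-inducible p200 family whose level is known to vary between inbred mouse strains, read 4.37, 4.56, 4.42 and 4.56 in WT and 9.98, 9.98, 9.88 and 9.78 in dKO. WT arrays were dim and dKO arrays bright, a difference of 5.43 ± 0.11 (adjusted p = 1.17e-27). The WT readings lay near those of liver genes in MEFs (Cps1 at 4.50 and Alb at 5.25) and were not tested against background, so no fold is given and the true difference may be larger. Gbp2, a GTPase that attacks pathogen vacuoles, read 5.01, 4.92, 5.10 and 5.00 in WT and 7.23, 7.34, 7.32 and 7.37 in dKO, a difference of 2.30 ± 0.09 (adjusted p = 1.31e-19) that its second probe set showed at 1.99 ± 0.12. Gbp3 was higher by 1.04 ± 0.10 and Ifi35 by 0.73 ± 0.03. Parp9 and Parp14, ADP-ribosyltransferase family members of the interferon response, were higher by 1.15 ± 0.05 and 0.99 ± 0.10. The second, dimmer probe set of Parp14 gave 0.18 ± 0.09 and was not called, with 0.59 for the mean of both. On its brightest probe set Parp14 read 4.51 to 4.71 in WT, in the same dim range as Ifi202b there.

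Trim25, the ubiquitin ligase that activates the RNA sensor RIG-I and also ligates ISG15, showed the largest difference downwards. It read 9.95, 10.04, 9.93 and 10.03 in WT and 5.27, 4.81, 5.26 and 4.96 in dKO. All dKO arrays lay below all WT arrays, a difference of −4.91 ± 0.10 (adjusted p = 4.1e-28), and its other probe sets gave −4.61 and −1.08. The dKO readings lay in the same dim range, so no fold is given here either. Among the antiviral effectors, Ifit1, whose product binds viral RNA that lacks cap methylation, was lower in dKO by 1.36 on the log2 scale (difference −1.36 ± 0.09, adjusted p = 1.18e-14) and Ifit3, its partner, by 0.56 (−0.56 ± 0.09, adjusted p = 2.11e-06). Bst2, the tethering factor that holds virus particles on the cell, was higher by 0.76 ± 0.06. Of the transcription factors, Irf1 was higher by 0.84 ± 0.04 and Irf9 lower by 0.26 (−0.26 ± 0.07), while Stat2 and Irf7 were not called. Of the RNA sensors, Ifih1 was lower by 0.54 (−0.54 ± 0.06) and the kinase Eif2ak2 (PKR) was higher by 0.35 ± 0.05. Oasl1 (−0.24 ± 0.09, adjusted p = 0.0312) and Ifit2 (−0.13 ± 0.05, adjusted p = 0.0287) were close to the threshold. Each call ended without any 1 of 5 vehicle arrays, with adjusted p from 0.0583 to 0.142 for Oasl1 (WT replicates 1, 2 and 3, dKO replicates 1 and 2) and from 0.0516 to 0.101 for Ifit2 (WT replicates 1 and 2, dKO replicates 2, 3 and 4). The call of Oasl1 also ended with the array width, the interquartile range of an array, as a covariate (adjusted p = 0.0503). Fibroblast markers differed in the same comparison, with 6 of 6 lower in dKO (median −1.28), beside 19.2% of all genes called lower. Single differences ran from −4.68 for Col1a2 to −0.16 for Vim. The markers had a summed level of 14.28 to 14.30 in dKO against 15.31 to 15.35 in WT. Their part in these differences was not tested.

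**Figure D1:**
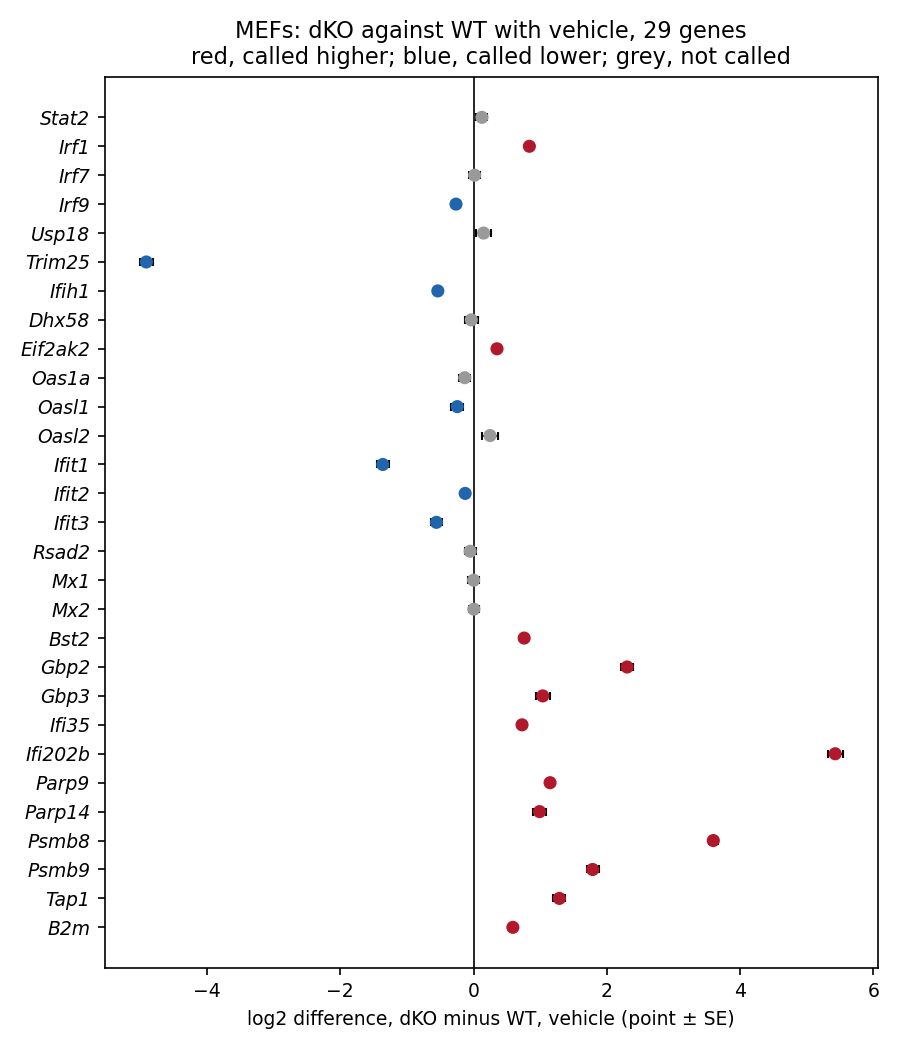
Differences between dKO and WT MEFs with vehicle for the 29 measured interferon-stimulated genes, ordered by role from transcription factors (top) to antigen presentation (bottom). The horizontal axis is the log2 difference, points are estimates and bars are SE (4 arrays per group, bars often smaller than the points). Ifi202b at 5.43 and Psmb8 at 3.60 lie farthest right and Trim25 at −4.91 farthest left.

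The activator 991 raised a small set of interferon-stimulated genes in WT MEFs, and none in dKO MEFs was called. In WT, 7 of 29 genes were higher and 1 lower, beside 14% and 5.65% of all genes, and the median was 0.07 against 0.00 over all genes. In dKO, 0 of 29 were called by limma and 4 had an unadjusted p under 0.05, where 1.88% of all genes were called higher and 1.58% lower. The difference between genotypes was tested as the interaction (the WT effect minus the dKO effect). It was called for 4 genes, all with the higher effect in WT, beside 4.37% of all genes called higher and 0.912% lower. With quantile normalization the split of the interaction was 4 higher and 1 lower.

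These 4 genes were Ifit1, Ifit2, Ifit3 and Stat2. Ifit1 read 7.47, 7.47, 7.48 and 7.43 in WT with vehicle and 8.50, 8.30 and 8.11 with 991. In dKO it read 5.97, 6.07, 6.30 and 6.07 with vehicle and 6.15, 6.10, 6.28 and 6.11 with 991. The WT groups did not overlap and the dKO groups did. The change was 0.84 ± 0.09 or 1.79-fold in WT (adjusted p = 2.11e-07) and 0.06 in dKO, and the interaction was 0.78 ± 0.13 (adjusted p = 0.000307).

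Ifit2, an RNA-binding effector of the same family, read 8.82, 8.87, 8.76 and 8.80 in WT with vehicle and 9.45, 9.52 and 9.31 with 991. In dKO the readings were 8.77, 8.69, 8.66 and 8.62 with vehicle and 8.64, 8.59, 8.79 and 8.67 with 991. All 3 WT arrays with 991 lay above every other MEF array for this gene. The change was 0.61 ± 0.05 in WT (adjusted p = 8.05e-10) and −0.01 in dKO, with an interaction of 0.63 ± 0.07 (adjusted p = 8.2e-07).

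Stat2, the subunit that gives the type I interferon complex its activating domain, read 6.12, 6.11, 6.05 and 6.00 in WT with vehicle and 6.60, 6.80 and 6.38 with 991, and it read 6.11, 6.25, 6.26 and 6.16 in dKO with vehicle and 6.09, 6.33, 6.10 and 6.04 with 991. Its groups were apart in WT and overlapped in dKO. The change was 0.52 ± 0.09 in WT (adjusted p = 0.000126) and −0.06 in dKO, with an interaction of 0.58 ± 0.12 (adjusted p = 0.00385).

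Ifit3 read 6.28, 6.31, 6.31 and 6.30 in WT with vehicle and 6.96, 6.59 and 6.62 with 991, a change of 0.42 ± 0.09 (adjusted p = 0.00226). Its interaction of 0.43 ± 0.13 (adjusted p = 0.0482) was at the edge of the threshold. It was not called with the array width as a covariate (adjusted p = 0.115), and 15 of the 23 settings that left out 1 array gave adjusted p from 0.0502 to 0.213. The calls in WT of Ifit1, Ifit2, Ifit3 and Stat2, and the interactions of Ifit1, Ifit2 and Stat2, held in every alternative in which the gene was tested.

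The other calls with 991 in WT MEFs were small. Ifih1 (MDA5, a sensor of long double-stranded RNA) rose by 0.26 ± 0.07, Bst2 by 0.22 ± 0.06 and Parp9 by 0.19 ± 0.06, and Mx2 fell by 0.22 (−0.22 ± 0.08, adjusted p = 0.0484). The call of Mx2 ended in 17 of 23 settings without 1 array (adjusted p 0.0501 to 0.241). Without WT vehicle replicate 1 the count fell from 8 to 5, by the loss of Bst2 (adjusted p = 0.0659), Parp9 (0.0671) and Mx2 (0.176). Without WT 991 replicate 4 these were 0.0869 for Bst2 and 0.0594 for Parp9, without WT 991 replicate 3 Parp9 had 0.111, and without WT 991 replicate 2 Ifih1 had 0.0576. The array width as a covariate ended all 4 of these calls (adjusted p 0.132 to 0.558), and quantile normalization ended those of Bst2 (0.154), Parp9 (0.0995) and Mx2 (0.0997). Psmb8, Psmb9, Tap1, B2m, Gbp2, Gbp3, Ifi35 and Ifi202b were not called.

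**Figure D2:**
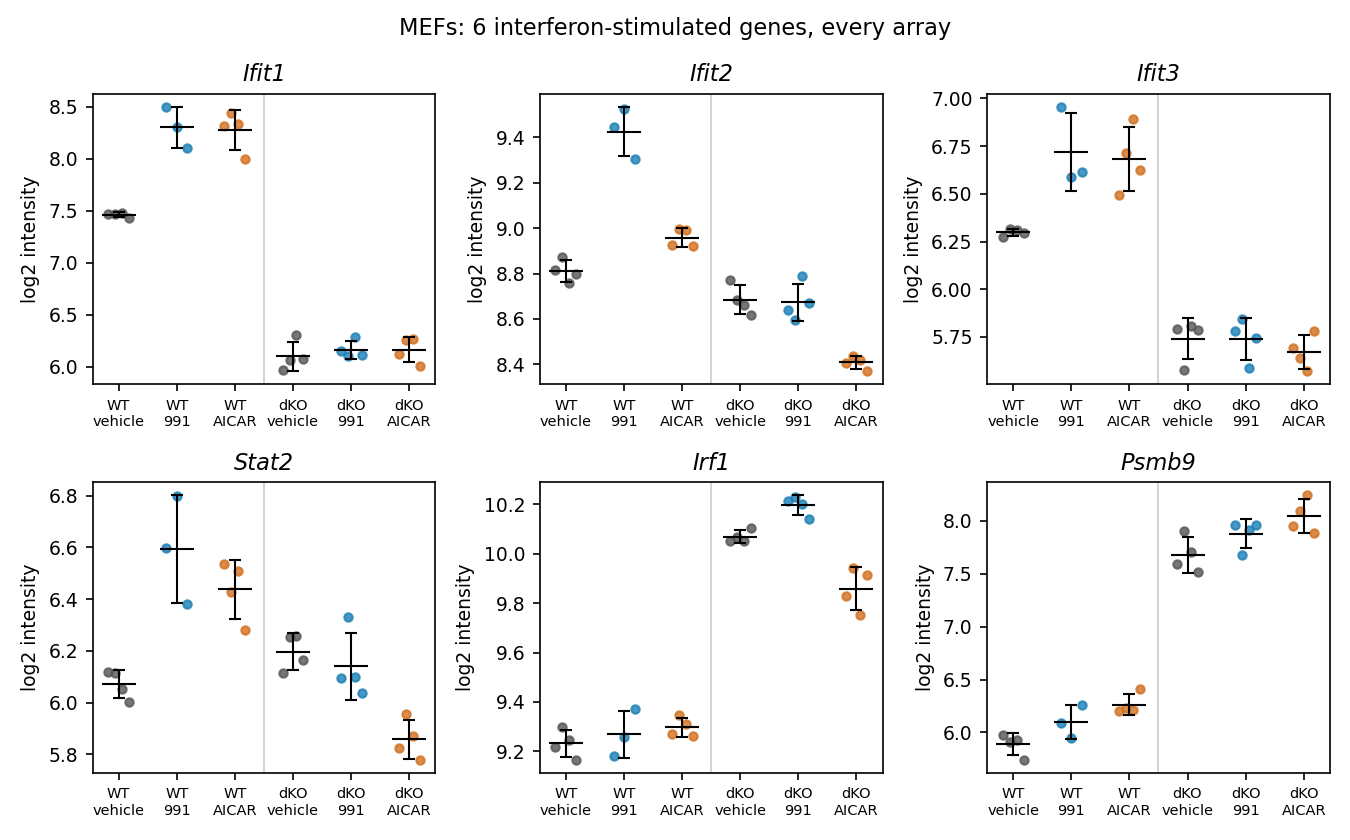
Log2 intensity of 6 interferon-stimulated genes in every MEF array, by genotype and treatment. Points are arrays and horizontal marks with bars are group means ± SD (n = 4, or 3 for WT with 991). Ifit1 lies at 8.11 to 8.50 in WT with 991 and at 8.00 to 8.44 in WT with AICAR, above WT vehicle, and stays at 6.30 or less in all dKO arrays.

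AICAR in MEFs gave calls in both genotypes, mostly rises in WT and mostly falls in dKO. The comparisons of 991 and AICAR share the vehicle arrays, so likeness between them is no separate evidence. In WT, 7 genes were higher and 1 lower, beside 19.6% and 15.5% of all genes. With quantile normalization the split in WT was 6 higher and 2 lower. In dKO, 2 were higher and 9 lower, against 20.4% and 19.8% of all genes. The medians of the 29 genes were 0.00 in WT and −0.04 in dKO, beside −0.01 and −0.02 over all genes.

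The Ifit genes and Stat2 were higher with AICAR in WT. Ifit1 read 8.32, 8.44, 8.34 and 8.00 in WT and 6.13, 6.26, 6.27 and 6.01 in dKO with AICAR. Against the vehicle readings given above, the WT groups did not overlap and the dKO groups did. The change was 0.81 ± 0.09 in WT (adjusted p = 6.14e-09) and 0.07 in dKO, with an interaction of 0.74 ± 0.12 (adjusted p = 8.19e-05). Ifit3 rose by 0.38 ± 0.09 in WT (adjusted p = 0.000695) and its difference in dKO was −0.07, with an interaction of 0.45 ± 0.12 (adjusted p = 0.0129).

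Stat2 and Ifit2 were called in opposite directions in the genotypes. Stat2 read 6.54, 6.43, 6.51 and 6.28 in WT with AICAR and 5.82, 5.96, 5.87 and 5.78 in dKO. In WT every AICAR array was above every vehicle array and in dKO below. The change was 0.37 ± 0.08 in WT (adjusted p = 0.000618) and −0.34 ± 0.08 in dKO (adjusted p = 0.00113), with an interaction of 0.71 ± 0.12 (adjusted p = 7.52e-05). Ifit2 rose by 0.15 ± 0.05 in WT (adjusted p = 0.0149) and fell by 0.28 in dKO (−0.28 ± 0.05, adjusted p = 1.56e-05), with an interaction of 0.42 ± 0.07 (adjusted p = 4.45e-05). The rise of Ifit2 in WT was not called with quantile normalization (0.09, adjusted p = 0.0902), with the array width as a covariate (0.0951) or without WT vehicle replicate 3 (adjusted p = 0.0559), so of this pair only Stat2 kept opposite calls in every alternative in which it was tested.

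The interaction with AICAR was called for 5 genes, where 7.93% of all genes were called higher and 4.18% lower. In all 5 the effect was higher in WT than in dKO. The fifth was Irf1, an early transcription factor of the interferon gamma response, with 0.28 ± 0.06 (adjusted p = 0.00171). It fell by 0.21 in dKO (−0.21 ± 0.04, adjusted p = 0.000114) from 10.05, 10.07, 10.05 and 10.11 to 9.83, 9.94, 9.75 and 9.91, groups that do not overlap, and its difference in WT was 0.07 and not called.

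Some genes were called in the same direction in both genotypes. Dhx58 (LGP2, a relative of the RNA sensors without signalling domains) fell by 0.48 in WT and 0.40 in dKO (−0.48 ± 0.10 and −0.40 ± 0.10, adjusted p = 0.000214 and 0.00133), and the mean of its probe sets gave −0.25 and −0.26, both called. Psmb9 rose by 0.37 ± 0.09 and 0.36 ± 0.09 (adjusted p = 0.00112 and 0.00116), and Parp9 by 0.15 ± 0.05 and 0.21 ± 0.05. The interaction was not called for these genes. In WT the Parp9 call ended without WT vehicle replicate 1 (adjusted p = 0.088) or WT AICAR replicate 2 (0.0609).

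The other falls in dKO were Parp14 by 0.53, Tap1 by 0.30, Eif2ak2 by 0.24, Irf9 by 0.17 and Ifi35 by 0.12, all on the log2 scale. The mean of all probe sets gave −0.34 for Parp14 and −0.16 for Tap1, and quantile normalization gave −0.19 for Ifi35, all called. Bst2 rose by 0.27 ± 0.06 in WT, and its difference in dKO was 0.11 and not called. The call of Eif2ak2 ended when all its probe sets were averaged (−0.06, adjusted p = 0.309) and that of Tap1 without dKO vehicle replicate 3 (adjusted p = 0.0512). For Irf9 the call ended with quantile normalization (adjusted p = 0.0925) and without any 1 of 7 dKO arrays, dKO AICAR replicates 1, 3 and 4 and each dKO vehicle replicate (0.0596 to 0.131).

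In WT hepatocytes, 991 raised Rsad2, Usp18, Oasl1 and Mx2 and lowered Irf1 and Trim25, so 4 of 29 genes were higher and 2 lower, beside 3.72% and 2.36% of all genes. With quantile normalization the split was 3 and 3. In dKO hepatocytes 0 of 29 were called by limma and 2 had an unadjusted p under 0.05, where 0.0055% of all genes (1 gene) were called. The median of the 29 genes was 0.01 in WT and 0.00 in dKO, beside 0.03 and 0.01 over all genes.

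Rsad2 ranged from 9.30 to 10.25 with a median of 9.58 in the 10 WT vehicle arrays and from 10.15 to 11.12 with a median of 10.55 in the WT arrays with 991. In dKO it ranged from 9.46 to 10.17 (median 9.66) with vehicle and from 9.43 to 10.25 (median 9.88) with 991. The WT arrays overlapped only at their edges, and the dKO arrays overlapped widely. Preparation means changed by 1.06 and 0.67 in WT, together 0.86 ± 0.09 or 1.82-fold (adjusted p = 0.000241). The other probe sets of Rsad2 gave 0.83 and 0.75. In dKO the difference was 0.13 ± 0.09.

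Rsad2 was also the 1 gene whose response to 991 differed between genotypes, with an interaction of 0.74 ± 0.12 (adjusted p = 0.0282), where 0.33% of all genes were called higher in the interaction and 0.0824% lower. The call ended without WT preparation 1 (0.54, adjusted p = 0.136), without dKO preparation 1 (adjusted p = 0.0944) or 2 (0.0755), and with the mean of all probe sets (0.0614). For the other genes the interaction was not called, and with 4 degrees of freedom this does not show that the genotypes responded alike. It was 0.54 ± 0.12 for Usp18 (adjusted p = 0.106) and 0.43 ± 0.12 for Oasl1 (adjusted p = 0.223).

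Oasl1, a 2′-5′ oligoadenylate synthetase-like protein, ranged from 7.36 to 8.01 (median 7.63) with vehicle and from 8.06 to 8.59 (median 8.34) with 991 in WT. These arrays did not overlap. It rose by 0.77 and 0.55 in the 2 preparations, 0.66 ± 0.08 (adjusted p = 0.00104). Usp18 ranged from 9.28 to 10.44 with vehicle and from 10.18 to 10.91 with 991 in WT, arrays that overlap in part, and it rose by 0.82 and 0.44, 0.63 ± 0.08 (adjusted p = 0.0014). In dKO the differences with 991 were 0.23 for Oasl1 and 0.09 for Usp18.

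Irf1 ranged from 9.37 to 9.76 with vehicle and from 9.03 to 9.22 with 991 in WT and did not overlap. It fell by 0.34 and 0.54 in the 2 preparations (−0.44 ± 0.09, adjusted p = 0.0135), and its difference in dKO was −0.05. Trim25 fell by 0.29 (−0.29 ± 0.07, adjusted p = 0.0253) and Mx2 rose by 0.25 ± 0.06 (adjusted p = 0.041). Without WT preparation 2 the count of called genes was 3 in place of 6, with adjusted p of 0.395 for Irf1, 0.517 for Trim25 and 0.301 for Mx2. Without WT preparation 1 Irf1 had 0.0696 and Mx2 0.226, and without dKO preparation 1 or 2 Mx2 had 0.0642 and 0.0641. When the level of each preparation was not taken out (no replicate block), Rsad2 was the 1 call that held.

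**Figure D3:**
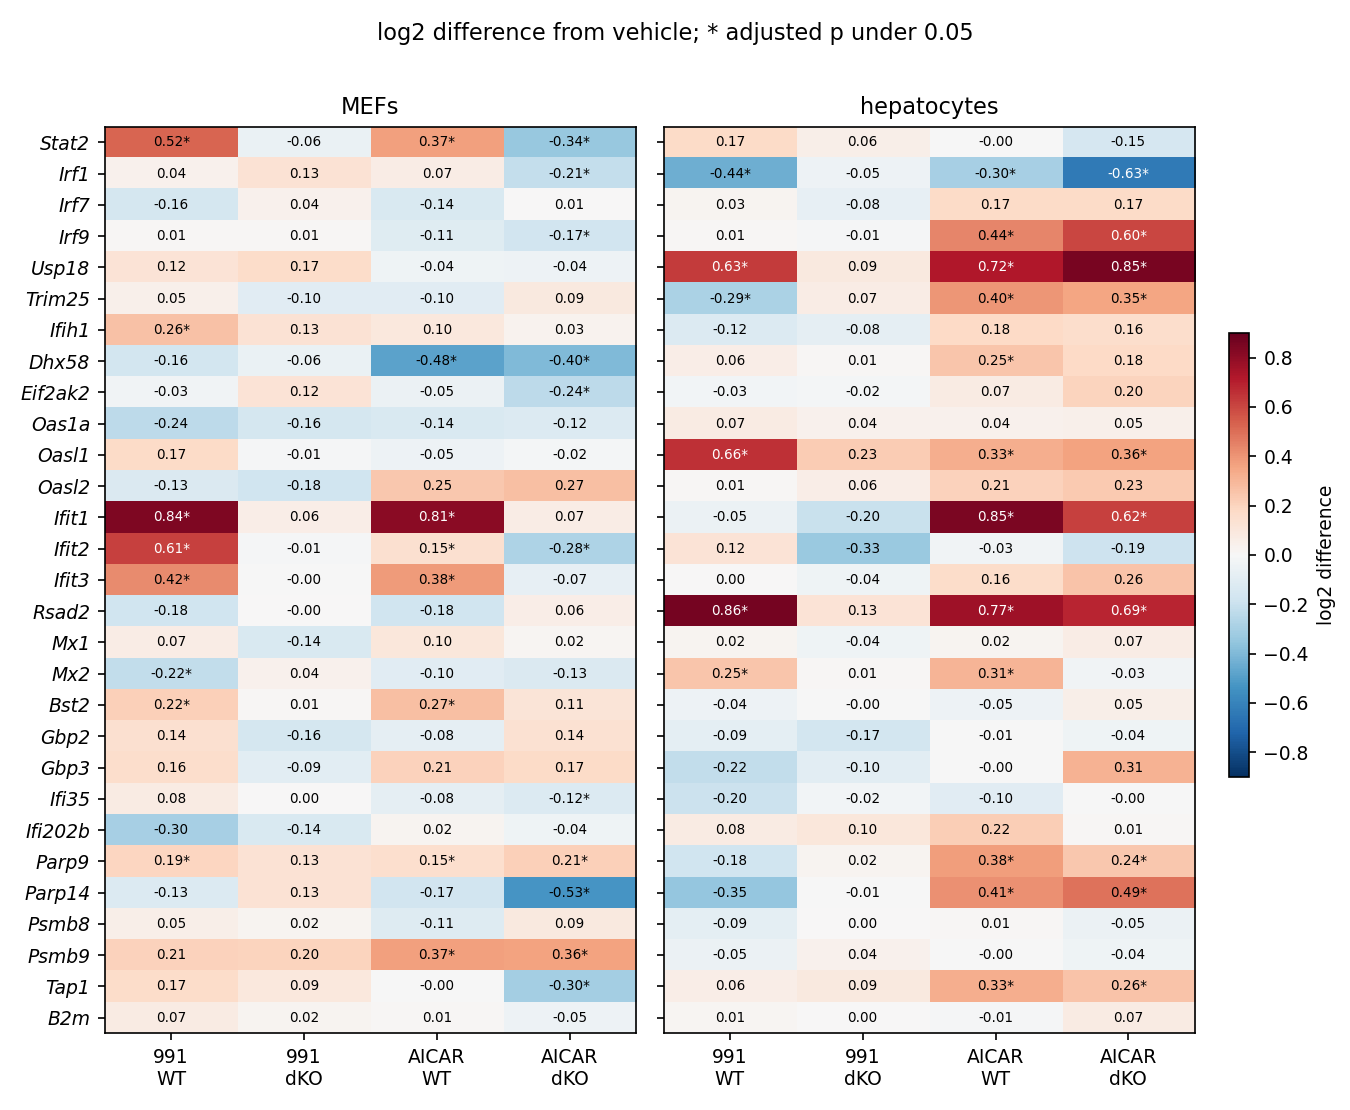
Log2 differences from vehicle of the 29 measured interferon-stimulated genes for 991 and AICAR in each genotype, in MEFs (left) and hepatocytes (right); colour and printed value give the difference and an asterisk an adjusted p under 0.05. With 991 no gene carries an asterisk in dKO cells of either type. Of all genes, 1.88% were called higher and 1.58% lower there in MEFs, and 0.0055% were called in hepatocytes. With AICAR 10 genes carry one in dKO hepatocytes, beside 10.5% of all genes called higher and 7.31% lower. In dKO MEFs 11 genes carry one with AICAR, beside 20.4% and 19.8% of all genes.

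AICAR gave calls in hepatocytes of both genotypes, mostly upwards. In WT, 11 genes were higher and 1 lower, beside 8.51% and 7.99% of all genes. In dKO, 9 were higher and 1 lower, against 10.5% and 7.31% of all genes. The median of the 29 genes was 0.17 in each genotype, and that of all genes was 0.04 in each. The 10 genes called in dKO were all called in WT with the same sign. The interaction was called for 0 of 29 genes by limma and 3 had an unadjusted p under 0.05, where 0.154% of all genes were called higher and 0.154% lower.

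Both measured genes of the ISG15 group rose. Usp18 ranged from 10.36 to 10.85 (median 10.58) with AICAR in WT. In dKO it ranged from 9.35 to 9.92 (median 9.74) with vehicle and from 10.02 to 11.12 (median 10.57) with AICAR. The dKO arrays did not overlap, and the WT arrays met at the edge of the vehicle range given above. The change was 0.72 ± 0.08 in WT (adjusted p = 0.000283) and 0.85 ± 0.08 in dKO (adjusted p = 5.96e-05), with preparation differences of 0.92 and 0.52 in WT and 0.85 and 0.86 in dKO. Trim25 rose by 0.40 ± 0.07 in WT and 0.35 ± 0.07 in dKO. Its calls ended without preparation 1 of the genotype concerned (adjusted p = 0.0594 in WT and 0.12 in dKO).

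Among the antiviral effectors, Rsad2 rose by 0.77 ± 0.09 in WT (adjusted p = 0.000238) and by 0.69 ± 0.09 in dKO (adjusted p = 0.00033). It ranged from 10.17 to 11.00 (median 10.48) in WT and from 10.07 to 11.47 (median 10.40) in dKO with AICAR, each overlapping its vehicle arrays at the edge. Ifit1 ranged from 5.84 to 7.51 (median 6.52) with vehicle and from 7.15 to 8.12 (median 7.49) with AICAR in WT, and from 6.66 to 7.49 (median 6.86) and 7.22 to 8.82 (median 7.47) in dKO. Its rise was 0.85 ± 0.13 in WT (adjusted p = 0.00181) and 0.62 ± 0.13 in dKO (adjusted p = 0.00867), the latter not called without dKO preparation 2 (0.46, adjusted p = 0.148). The differences of Ifit2 were −0.03 in WT and −0.19 in dKO and those of Ifit3 were 0.16 and 0.26, none of them called. Mx2 rose in WT by 0.31 ± 0.06, a call that ended without WT preparation 1 (adjusted p = 0.0966) or 2 (0.0743).

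The transcription factors split. Irf9, the DNA-binding subunit of the type I interferon complex, rose by 0.44 ± 0.08 in WT (adjusted p = 0.00499) and by 0.60 ± 0.08 in dKO (adjusted p = 0.000657). In dKO it ranged from 7.39 to 7.92 with vehicle and from 8.07 to 8.52 with AICAR, without overlap. Irf1 went the other way and fell by 0.63 in dKO (−0.63 ± 0.09, adjusted p = 0.000674), from a range of 9.32 to 9.79 to a range of 8.83 to 8.98, and by 0.30 in WT (−0.30 ± 0.09, adjusted p = 0.0408). The WT call of Irf1 ended without either WT preparation (adjusted p = 0.197 and 0.202) and with quantile normalization (0.0508), and that of Irf9 in WT ended without WT preparation 1 (0.0631). Stat2 and Irf7 were not called.

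The other called genes were Oasl1, the PARP genes, Tap1 and Dhx58. Oasl1 rose by 0.33 ± 0.08 and 0.36 ± 0.08, Parp14 by 0.41 ± 0.09 and 0.49 ± 0.09, Parp9 by 0.38 ± 0.08 and 0.24 ± 0.08 and Tap1 by 0.33 ± 0.08 and 0.26 ± 0.08 in WT and dKO, and Dhx58 rose by 0.25 ± 0.07 in WT. Psmb8, Psmb9, B2m, Gbp2, Gbp3, Ifi35 and Ifi202b were not called. The rises of Parp14 and Tap1 were not called when all probe sets of the gene were averaged, with 0.08 and 0.14 in WT and 0.06 and 0.16 in dKO. Calls also depended on single preparations. Without WT preparation 1 the count in WT was 4 in place of 12, with adjusted p of 0.292 for Dhx58, 0.132 for Oasl1, 0.101 for Parp14, 0.0878 for Parp9 and 0.172 for Tap1. Without WT preparation 2 it was 7, with 0.0568 for Dhx58, 0.12 for Oasl1 and 0.0883 for Tap1, and without dKO preparation 1 or 2 Dhx58 had 0.0512 and 0.0501. In dKO the count without dKO preparation 2 was 5 in place of 10, with 0.183 for Oasl1, 0.0677 for Parp14, 0.403 for Parp9 and 0.481 for Tap1. With no replicate block 4 calls held in WT (Usp18, Ifit1, Rsad2 and Mx2) and 5 in dKO (Irf1, Irf9, Usp18, Ifit1 and Rsad2). The dKO call of Parp9 also ended with quantile normalization (0.0578), without dKO preparation 1 (0.0727) or either WT preparation (0.0535 and 0.0549), and that of Tap1 without either WT preparation (0.066 and 0.0666), and it was 0.39 without dKO preparation 1.

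Some markers of other liver cells were called in the same AICAR comparisons, where 8.51% of all genes were called higher in WT and 10.5% in dKO. Of 9 macrophage markers, 1 was called higher in WT and 6 in dKO, with medians of 0.17 and 0.31, and of 7 endothelial markers 3 and 4 were called higher. The summed macrophage level was 12.07 to 12.66 with vehicle and 12.23 to 12.72 with AICAR in WT, and 11.34 to 11.74 and 11.61 to 12.04 in dKO. For the endothelial markers the sums were 9.55 to 9.92 and 9.95 to 10.34 in WT, and 9.60 to 9.93 and 9.90 to 10.30 in dKO. The part of these cells in the rises of the interferon-stimulated genes was not tested. Of 5 hepatocyte markers, 2 were called higher in each genotype (Tat by 0.49 in WT and 0.50 in dKO, Cps1 by 0.23 in each). Lymphocyte markers gave 0 calls of 5 in either genotype. With 991 in WT, 1 of 9 macrophage markers and 0 of 7 endothelial markers were called, beside 3.72% of all genes called higher and 2.36% lower.

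**Figure D4:**
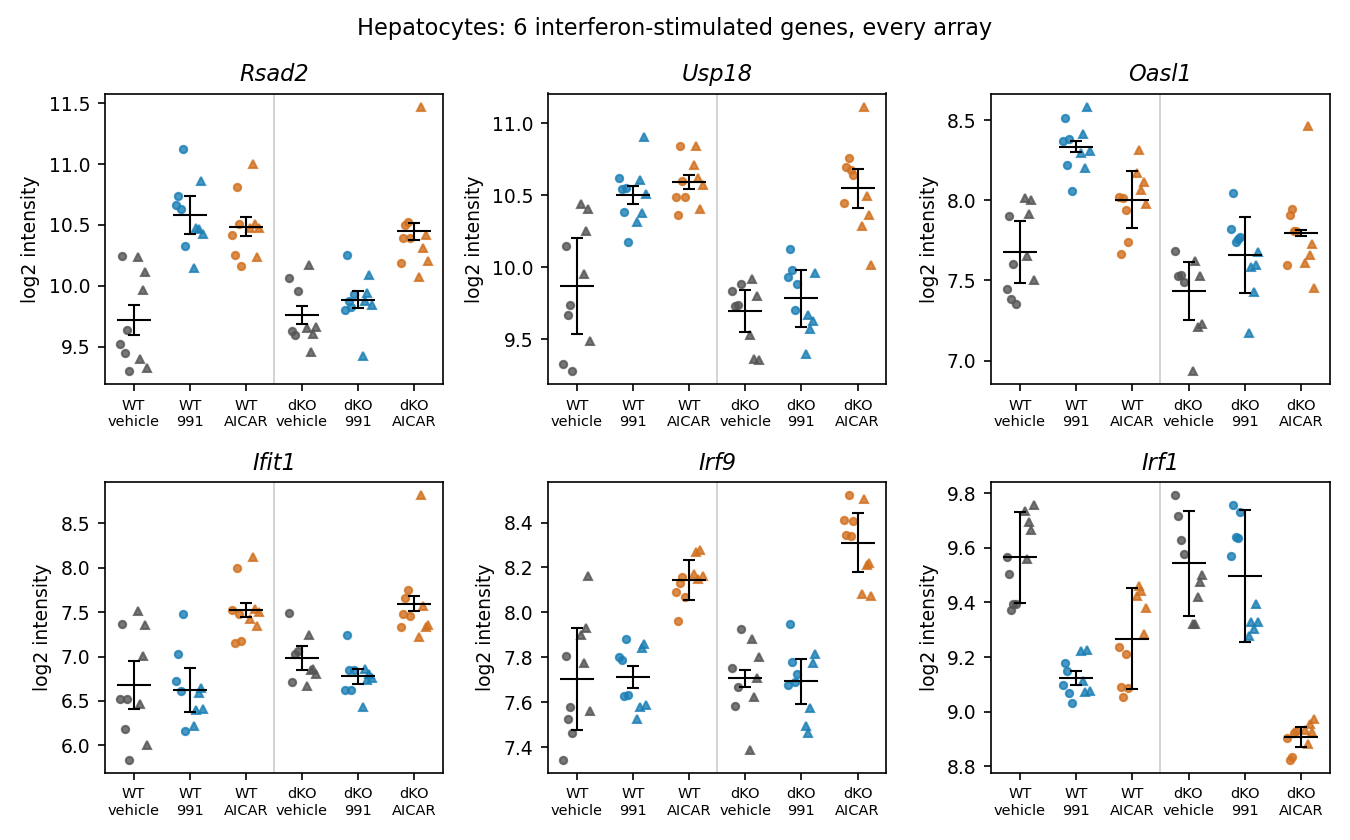
Log2 intensity of 6 interferon-stimulated genes in every hepatocyte array, by genotype and treatment. Circles are arrays of preparation 1 and triangles of preparation 2, and horizontal marks with bars are the mean ± SD of the 2 preparation means. Rsad2, Usp18 and Oasl1 are higher with 991 in WT, and Irf1 with AICAR in dKO lies at 8.83 to 8.98, below all other groups.

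Between dKO and WT hepatocytes with vehicle, 0 of 29 genes were called by limma and 0 had an unadjusted p under 0.05, with 2 residual degrees of freedom, where 0% of all genes were called and 846 had an unadjusted p under 0.05. The median difference was 0.04, and single genes lay between −0.71 and 0.35. Ifi202b had the lowest difference, with 4.87 ± 0.41 (SD, n = 2) in WT and 4.16 ± 0.65 in dKO, and its arrays ranged from 4.47 to 5.38 and from 3.52 to 4.73. The gene was dim and the genotypes overlapped. Macrophage markers in the vehicle arrays summed to 12.07 to 12.66 in WT and 11.34 to 11.74 in dKO, without overlap. Their median difference was −0.43, and 0 of 9 were called. The part of macrophages in comparisons between the hepatocyte genotypes was not tested.

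Genes that act upstream of the interferon-stimulated genes were taken from a second list, of which 28 of 31 were measured. The interferon genes themselves were dim, with Ifnb1 at 5.16 in MEFs and 5.33 in hepatocytes, Ifna4 at 4.09 and 4.23 and Ifng at 3.11 and 3.14. With 991 in WT MEFs 4 of 28 were higher and 1 lower, shares near the 14% and 5.65% of all genes. These were the receptor chains Ifngr2 (0.20 ± 0.05), Ifnar1 (0.16 ± 0.05) and Ifnar2 (0.12 ± 0.04) and the adaptor of RNA sensing Mavs (0.19 ± 0.05), while the DNA-sensing adaptor Sting1 fell by 0.16. In dKO MEFs with 991 none was called, beside 1.88% of all genes called higher and 1.58% lower. With AICAR 8 were higher and 7 lower in WT MEFs, beside 19.6% and 15.5% of all genes, and 10 and 10 in dKO, beside 20.4% and 19.8%.

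The largest falls with AICAR in dKO MEFs were those of Socs3 and Socs1, feedback inhibitors of Janus kinase signalling, by 0.79 and 0.74, followed by the adaptor Ticam1 by 0.59, the transcription factor Irf3 by 0.58 and Mavs by 0.53. The AICAR interaction was called for 7 of the 28, all with the higher effect in WT, beside 7.93% of all genes. For Socs3 it was 0.81 ± 0.08 (limma, adjusted p = 9.98e-09). Between the MEF genotypes with vehicle 16 were higher in dKO and 1 lower, beside 28% and 19.2% of all genes, led by the RNA sensor Tlr3 (1.52 ± 0.08), the RNA sensor Ddx58 (RIG-I, 0.89 ± 0.05), Il10rb (0.88 ± 0.04), Jak2 (0.84 ± 0.04) and Ifngr2 (0.71 ± 0.04). In hepatocytes 991 in WT gave 2 higher and 2 lower, beside 3.72% and 2.36% of all genes (Stat3 0.51 ± 0.08, Mavs 0.47 ± 0.07, Irf2 −0.47 ± 0.08 and Ptpn11 −0.16 ± 0.04). AICAR gave 3 higher and 3 lower in WT, beside 8.51% and 7.99% of all genes, and 4 and 1 in dKO, beside 10.5% and 7.31%, among them Tbk1, the kinase that activates IRF3, by 0.22 ± 0.05 and 0.47 ± 0.05, and Ifngr2, which fell by 0.41 in each.

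Another list held further interferon-stimulated genes, of which 37 of 40 were measured. With 991 in WT MEFs 10 of 37 were higher and 0 lower, beside 14% and 5.65% of all genes, led by the chemokine Cxcl10 (0.56 ± 0.06, adjusted p = 2.76e-07), Xaf1 (0.41 ± 0.10), the chemokine Ccl5 (0.34 ± 0.07) and Tor3a (0.32 ± 0.06), although the median over the list was −0.02. None was called with 991 in dKO MEFs, beside 1.88% of all genes called higher and 1.58% lower. The interaction was called, beside 4.37% of all genes higher, for Cxcl10 (0.55 ± 0.09), Ccl5 (0.53 ± 0.09) and Ifi30 (0.19 ± 0.05). With AICAR 7 were higher and 4 lower in WT MEFs, beside 19.6% and 15.5% of all genes, and 4 higher and 10 lower in dKO, beside 20.4% and 19.8%. In dKO Trim21 fell by 1.01 and Nlrc5, the transactivator of MHC class I genes, by 0.80.

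Between the MEF genotypes 19 of the 37 were higher in dKO and 4 lower, beside 28% and 19.2% of all genes. The 6 with the largest differences were Nlrc5 at 2.57 ± 0.14, the class I heavy chains H2-K1 at 2.31 ± 0.03 and H2-D1 at 1.55 ± 0.03, and the transporter subunit Tap2 at 1.96 ± 0.09, beside Xaf1 at 1.72 ± 0.09 and the GTPase Igtp at 1.19 ± 0.08. Nlrc5 had a mean of 4.27 in WT with vehicle, a level as dim as that of Ifi202b there and not tested against background. In hepatocytes AICAR gave 8 higher and 1 lower in WT, beside 8.51% and 7.99% of all genes, and 11 higher and 1 lower in dKO, beside 10.5% and 7.31%. Rtp4 rose by 1.04 ± 0.17 and 1.07 ± 0.17, the GTPase Iigp1 by 0.67 ± 0.11 and 0.79 ± 0.11, and Cmpk2, the genomic neighbour of Rsad2, by 0.43 ± 0.11 and 0.61 ± 0.11. With 991 in WT hepatocytes 3 were higher and 3 lower, beside 3.72% and 2.36% of all genes. Cxcl10, which 991 raised in WT MEFs, fell there by 0.62 (−0.62 ± 0.16, adjusted p = 0.0415), and Nlrc5 rose by 0.45 ± 0.06. The interactions in hepatocytes were called for none of the upstream or further genes. Of all genes, 0.33% were called higher and 0.0824% lower in the 991 interaction, and 0.154% each way in the AICAR one.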

How the data were processed

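Biotin-labelled cRNA of 82 samples was hybridised to Affymetrix mouse arrays. The authors deposited log2 intensities, 1 value per probe set and array, made with RMA and Partek, per the submitters' processing notes (versions not given in the sources used here). For each cell type 1 array had been excluded by the authors, per the series design text. Of 45101 probe sets, 64 controls were left out, and 34945 of the other 45037 had 1 gene symbol in the platform's annotation, 932 several and 9160 none (34741 matched RefSeq genes by Entrez identifier). The probe set brightest in the cell type stands for each of 18193 genes, with no filter on dim genes.

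The tests used limma 3.58.1 under R 4.3.3, with lmFit and with eBayes allowing an intensity trend, with Benjamini-Hochberg adjustment over all genes. MEF arrays were fitted with 6 group means (17 residual degrees of freedom). Hepatocyte technical replicates were averaged to 12 preparation means, with the preparation within genotype as a block (4 residual degrees of freedom). dKO and WT hepatocytes were compared on 4 vehicle means. The members and lists were chosen with earlier results of these data known. All measured members are accounted for; from the other lists up to 6 called genes per comparison with the largest change could be named, and Ifnb1, Ifna4 and Ifng were named after their values were seen. On simulated data limma called 90 of 100 changes of 0.5 and 100 of 100 changes of 1.0 in the MEF comparison of 991 with vehicle in WT, and 59 and 86 of 100 in the hepatocyte one. The hepatocyte simulation drew each preparation mean independently, with the spread between preparations included. In the real data the block takes out what the treatments of a preparation share, so these 2 counts do not give the sensitivity of the real hepatocyte test. The MEF simulation changed 100 genes at each size among 18193, with values drawn independently. In the real MEF comparison 14% of all genes were called higher and 5.65% lower. The MEF counts therefore do not give the sensitivity of the real MEF test either. Tables were prepared with Python 3.11.15 and pandas 2.3.3, and figures with matplotlib 3.10.9. The number of arrays limits the precision. Alternatives were quantile normalization, the mean of all probe sets, a test of only those genes whose level reached the median, the array width (interquartile range) as a covariate, the replicate block in MEFs, no replicate block in hepatocytes, every array as a sample, and leaving out each array or preparation.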

Additional observations from a re-analysis of the deposited data

Results flagged for a closer look

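Of 145 combinations of gene and MEF group with 4 arrays, 7 had 1 array far from the other 3, and chance gives about 1 in 20 groups. These were Irf7 in dKO vehicle replicate 1 (5.88, others 5.99), Usp18 in dKO AICAR replicate 3 (5.12, others 4.75 to 4.81), Ifih1 in WT vehicle replicate 1 (7.64, others 7.76 to 7.78), Ifit3 in dKO vehicle replicate 2 (5.58, others 5.79 to 5.81), Parp9 in dKO 991 replicate 1 (8.32, others 8.42 to 8.44), Parp14 in WT vehicle replicate 2 (4.71, others 4.51 to 4.54) and Psmb9 in WT AICAR replicate 4 (6.41, others 6.21 to 6.23).

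The effect of a compound was called different between WT and dKO, by the interaction in limma, in 10 cases. With 991 in MEFs the differences were 0.58 for Stat2, 0.78 for Ifit1, 0.63 for Ifit2 and 0.43 for Ifit3. With AICAR in MEFs they were 0.71 for Stat2, 0.28 for Irf1, 0.74 for Ifit1, 0.42 for Ifit2 and 0.45 for Ifit3. With 991 in hepatocytes the difference was 0.74 for Rsad2. In each the effect of the compound, the change from vehicle, was higher in WT than in dKO. The calls of Ifit3 with 991 in MEFs and of Rsad2 in hepatocytes did not hold in all alternatives. Leaving out 1 array ended that of Ifit3 in 15 of 23 settings, and leaving out 1 preparation ended that of Rsad2 in 3 of 4.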

How the results depend on the processing

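No call of a member reversed its direction in any alternative. The count of called members moved by more than 1.5 times in the cases below. Shares of all genes called under each setting are not given here, so the counts do not compare the members with other genes. With the array width as a covariate, 991 in MEFs gave 5 calls in WT in place of 8 and 1 in dKO in place of 0, with Ifi202b in WT (−0.54, adjusted p = 0.00786) and Irf1 in dKO (0.13, adjusted p = 0.0494) called there and not in the main comparison. With genes at or above the median level only, fewer members were tested, and MEF counts were 1 for the 991 interaction (4 before), 4 for AICAR in WT (8), 7 for AICAR in dKO (11), 2 for the AICAR interaction (5) and 13 for dKO against WT (20). In hepatocytes, no replicate block left 1 call with 991 in WT (6), 0 for the 991 interaction (1), 4 for AICAR in WT (12) and 5 for AICAR in dKO (10). Every array as a sample gave 10, 1 and 9 calls with 991 in WT, in dKO and in the interaction, 18 with AICAR in dKO, 3 for the AICAR interaction and 1 for dKO against WT, since technical replicates then count as samples. The mean of all probe sets gave 0 for the 991 interaction in hepatocytes. For the array width, the block and the mean of probe sets the cause was not tested. Leaving out 1 MEF array gave 5 to 10 calls with 991 in WT. Leaving out 1 hepatocyte preparation gave 3 to 7 with 991 in WT, 0 to 2 for its interaction, 4 to 11 with AICAR in WT and 5 to 11 with AICAR in dKO. The replicate block in MEFs gave 8 calls with 991 in WT and 3 for the 991 interaction, and of the calls of members it ended those of Mx2 with 991 in WT (adjusted p = 0.0681) and of Ifit3 in the 991 interaction (0.0677). MEF arrays that share a replicate number did not, by the median, deviate together (median r across genes 0.016 in 55 pairs, range −0.377 to 0.381). For 165 pairs with different numbers the median was −0.020 (range −0.461 to 0.406). These values do not show what the number stands for. Quantile normalization gave 4 higher and 1 lower for the 991 interaction in MEFs. The small number of preparations limits the hepatocyte calls, and probe sets as dim as those of Mx1 and Oasl2 limit what can be seen for these genes.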
